A study of Mus musculus with 22 samples.

Results

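The genes described here are 9 genes known from the suprachiasmatic nucleus, the paired cluster of hypothalamic neurons that holds the master circadian clock of mammals. They were chosen by symbol: the peptide genes Vip, Grp, Nms and Prok2, the receptor genes Vipr2 and Prokr2, the transcription factor genes Lhx1 and Six6, and the regulator gene Rgs16. All 9 were found among the 41456 gene IDs of the count table, and all 9 passed the filter on low counts that left 21346 genes for testing. The choice went by symbol and not by a measured value, but earlier results of these data were known when it was made.

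The study sequenced polyadenylated RNA of whole hypothalamus from mice on the C57BL/6J background. PWScrm+/p+ mice are the controls, and PWScrm+/p− mice lack the paternally inherited Snord116 cluster, a group of small nucleolar RNA genes in the Prader-Willi syndrome region that is expressed from the paternal chromosome only. Mice were taken at lights on (ZT0, zeitgeber time in hours after lights on), at ZT6 without disturbance, or at ZT6 after 6 hours of sleep deprivation (SD). Values below come from 17 libraries with a neural transcript profile: control ZT0 with 3 libraries, control ZT6 with 4, control SD with 4, mutant ZT6 with 2 (replicates 1 and 4) and mutant SD with 4.

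No mutant ZT0 library is among the 17, so the mutants have no lights-on value. Replicates were numbered in the order of the deposit, the labels give neither age nor sex, and nothing in them says that replicates came from separate mice, so p-values measure the spread between these samples, which may be technical. The labels do not say whether the deletion removes Snord116 in every cell of the tissue or whether tissue of several mice was pooled.

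The clock neurons keep time through a feedback loop of transcription factors and signal to one another and to the rest of the brain through peptides. Vasoactive intestinal peptide (Vip) and gastrin-releasing peptide (Grp) are made in the core of the nucleus, which receives light input from the retina, and vasoactive intestinal peptide acts on the receptor encoded by Vipr2 to keep the neurons in step. Neuromedin S (Nms) and prokineticin 2 (Prok2) are further output peptides, Lhx1 and Six6 encode homeodomain transcription factors needed for the nucleus to form or to keep its identity, and Rgs16 encodes a protein that shortens G protein signalling. In whole hypothalamus the nucleus is a small part of the tissue, and fewer cells of a type cannot be told apart from less RNA per cell.

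In the GENCODE M21 annotation of GRCm38 the protein-coding genes span chr10:5639218-5647617 (Vip, ENSMUSG00000019772), chr1:38939149-38950276 (Nms, ENSMUSG00000067604) and chr6:99711299-99726392 (Prok2, ENSMUSG00000030069). The receptor genes span chr12:116077726-116146261 (Vipr2) and chr2:132337733-132385447 (Prokr2), the factor genes chr11:84518284-84525535 (Lhx1) and chr12:72939892-72944899 (Six6), and the regulator gene chr1:153740349-153745468 (Rgs16). Vipr2 and Six6 share a chromosome but lie far apart, as do Nms and Rgs16.

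The promoters of Vip, Nms and Prok2 are shown because these 3 peptide genes varied together across libraries. Each run is the 250 bases before the RefSeq transcription start on GRCm38.p6, 5′ to 3′ on the gene's own strand, with a motif match in capitals. The Vip promoter lies at chr10:5638968-5639217 on the plus strand, and the capitals mark TGACG, the shorter core of the cyclic AMP response element.
Vip: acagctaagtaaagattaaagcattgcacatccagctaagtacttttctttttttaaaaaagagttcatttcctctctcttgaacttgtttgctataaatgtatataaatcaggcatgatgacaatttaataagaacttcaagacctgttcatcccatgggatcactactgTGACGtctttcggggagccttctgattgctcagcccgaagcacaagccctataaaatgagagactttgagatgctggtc
The Nms promoter lies at chr1:38938899-38939148 on the plus strand and holds no match to the motifs searched.
Nms: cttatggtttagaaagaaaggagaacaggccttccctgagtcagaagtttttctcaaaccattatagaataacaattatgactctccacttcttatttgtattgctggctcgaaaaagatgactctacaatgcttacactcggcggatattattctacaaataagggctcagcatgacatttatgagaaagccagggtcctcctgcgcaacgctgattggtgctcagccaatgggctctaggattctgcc
The Prok2 promoter lies at chr6:99726393-99726642 on the minus strand, and the capitals mark the E-box CACGTG, the letters that the clock factors CLOCK and BMAL1 are known to bind.
Prok2: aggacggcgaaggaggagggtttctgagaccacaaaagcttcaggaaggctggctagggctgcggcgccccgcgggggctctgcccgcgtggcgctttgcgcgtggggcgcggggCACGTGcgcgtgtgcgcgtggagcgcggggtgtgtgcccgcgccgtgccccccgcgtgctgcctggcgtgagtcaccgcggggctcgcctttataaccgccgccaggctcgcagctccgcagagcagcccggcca
The RefSeq promoter table held 8 of the 9 genes, without Grp. The motifs were searched on both strands. CACGTG occurred in 1 of the 8 promoters (Prok2) and in 6.02% of 32851 mouse promoters of the same length. TGACG occurred in 2 of the 8 (Vip and Lhx1) and in 17.8% of all, and AGGTCA, the core of the element that ROR and REV-ERB receptors bind, in 1 of the 8 (Prokr2) and in 14% of all. The full cyclic AMP response element TGACGTCA, which contains TGACG, and the D-box TTATGTAA occurred in none of the 8 and in 1.55% and 0.819% of all promoters. No motif was shared by the 3 promoters printed, and a match is a description of letters only.

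Depth in the 17 libraries ranged from 14609454 to 46965594 estimated counts per library. No mutant library had a count in the 17 Snord116 genes of the table, and 8 of the 11 control libraries did; the host transcript Snhg14 overlapped between genotypes, at 190.8 to 1921 CPM (counts per gene scaled by the library's effective total) in controls and 203 to 373.9 in mutants. The 7 neuron markers were present in all 17 libraries, with a summed level of 2098 to 3525 CPM. The index numbers in the sample titles run from 1 to 18 and from 43 to 46, and the labels do not explain them. They were divided here into 3 sets. Set 1 holds numbers 1 to 4 (control ZT6 replicate 1, control SD replicates 1 and 2, mutant SD replicate 1), and set 2 numbers 5 to 18. Set 3 holds numbers 43 to 46 (replicate 4 of control ZT6, control SD, mutant ZT6 and mutant SD). The titles show no gap between 4 and 5, and set 1 holds the 3 libraries lowest in Vip. Results that use set 1 are therefore not independent of Vip. All control ZT0 libraries are in set 2.

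Some libraries carried pituitary transcripts: the summed level of 8 pituitary markers was 24860 CPM in mutant SD replicate 1, 1804 in control ZT6 replicate 1 and 1234 in mutant SD replicate 4, against 18.84 to 121.1 in the other 14. Growth hormone (Gh) was at 0 in 3 libraries, prolactin (Prl) in 7 and Lhb in 11.

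Per length of transcript, Rgs16 had the highest mean level, 12.4 ± 5.22 CPM per kilobase (SD, n = 17). Vip followed at 4.59 ± 3.25, Six6 at 3.61 ± 1.54, Lhx1 at 2.81 ± 0.516 and Grp at 2.37 ± 0.961. Nms stood at 1.61 ± 1.06, Prokr2 at 1.2 ± 0.253, Vipr2 at 1.11 ± 0.251 and Prok2 at 0.744 ± 0.379 CPM per kilobase. Beyond Rgs16, each gene's mean differed from its neighbour in this order by less than the larger of the 2 SDs. The lowest count behind a value was 13 for Nms, 14 for Prok2, 23 for Vip and 27 for Grp, so counting error alone gives a coefficient of variation of 27.7%, 26.7%, 20.9% and 19.2% there. For the other 5 genes the lowest count was 68 (Vipr2) to 322 (Rgs16).

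**Figure D1:**
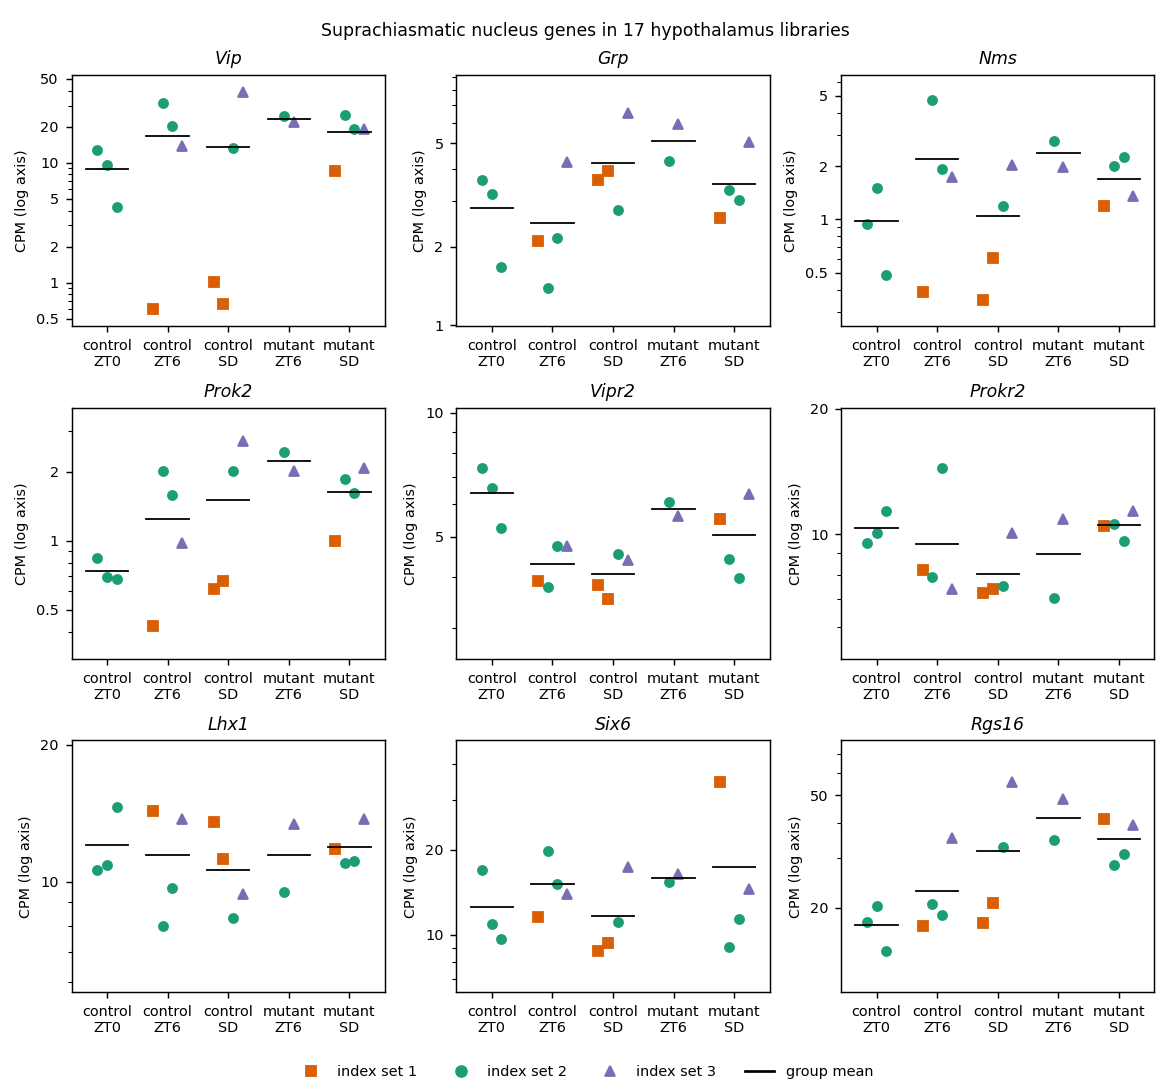
Level of each of the 9 genes (CPM, log axis) in each of 17 libraries by group; each point is 1 library, coloured by index set, and the bar is the group mean. Vip in 3 control libraries of set 1 lies at 0.609 to 1.02 CPM, below every other library (4.3 to 38.9).

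Vip had the widest range of the 9 genes. It stood at 12.9, 9.56 and 4.3 CPM in control ZT0 replicates 1 to 3, and at 0.609, 31.8, 20.3 and 13.7 in control ZT6 replicates 1 to 4. In control SD replicates 1 to 4 it was 1.02, 0.666, 13.3 and 38.9 CPM. Control libraries of set 1, 3 in all, were therefore near 1 CPM or lower, while the other 2 control SD libraries lay below and above the range of the 3 control ZT6 libraries outside set 1. In mutants Vip was 24.7 and 21.8 CPM at ZT6 and 8.6, 24.9, 19.1 and 19.2 after SD, so no mutant library was as low as those 3, including the mutant library of set 1 at 8.6.

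The highest Vip value was 63.9 times the lowest. The SD of log2 Vip within groups was 1.93, above 98.4% of the 2118 genes within 0.5 log2 units of its mean level. The summed neuron markers of the 3 low-Vip libraries were 2442, 2562 and 2709 CPM, inside the range of 2098 to 3525 of the other 14 and below the median of 2994 over all 17. Control SD replicate 4, the highest in Vip, had a sum of 2526. Preoptic genes summed to 36.3 to 48.66 against 28.55 to 50.2 CPM, and mammillary and posterior genes to 210.6 to 253.5 against 159.1 to 315.8. Clock genes summed to 1042 to 1152 CPM in the 3, against 869.8 to 1058 in the rest. That 1058 belonged to mutant SD replicate 1, also of set 1, and the highest sum of the rest without it was 1005. The 16 other genes known from the nucleus summed to 1189 to 1493 CPM in the 3, inside the range of 1088 to 2413 in the rest. The part of set, dissection or any other property of these libraries in their Vip level was not tested.

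Vip did not pass the test in any comparison. Its log2 fold change for SD against ZT6 in controls was -0.30 ± 1.01 (SE; edgeR quasi-likelihood test, Benjamini-Hochberg adjusted p = 1). The 95% interval was -2.27 to 1.67 by a normal approximation from the SE, which is narrower than the test implies. Even so, it spans large differences in both directions. Within sets the same difference was 0.40 log2 units in set 1, -0.92 in set 2 and 1.51 in set 3, so its direction was not shared. Leaving out 1 library at a time moved it between -1.68 (without control SD replicate 4) and 0.22 (without control ZT6 replicate 2).

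Nms, the neuromedin S gene, followed a like order of libraries. Its levels in controls were 0.94, 1.5 and 0.484 CPM at lights on, 0.386, 4.7, 1.93 and 1.74 in the undisturbed ZT6 group, and 0.349, 0.61, 1.19 and 2.02 in the sleep-deprived group. Mutants measured 2.77 and 1.98 CPM undisturbed and 1.19, 1.99, 2.26 and 1.35 when sleep-deprived. Control ZT6 replicate 2 was the highest of the 17, and the 4 lowest were the set 1 controls, at 0.349 to 0.61, and control ZT0 replicate 3. The difference between SD and ZT6 in controls was -1.08 ± 0.64 on the log2 scale, and that between ZT6 and ZT0 was 1.16 ± 0.70 (edgeR adjusted p = 0.904 and 0.96).

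Prok2, whose peptide is known to transmit circadian output to brain targets, was low and even at lights on, with 0.843, 0.69 and 0.683 CPM in control ZT0. Later in the light period the controls spread out, to 0.426, 2.01, 1.58 and 0.975 CPM without and 0.618, 0.67, 2.02 and 2.72 with sleep deprivation. Mutants measured 2.44 and 2.01 CPM without and 1, 1.85, 1.62 and 2.08 with it. Both mutant ZT6 libraries lay above the control ZT6 libraries, although the nearest pair differed by less than the last digit printed. Relative to ZT0, control Prok2 differed by 0.74 ± 0.58 log2 units at ZT6 and by 1.01 ± 0.58 after SD (edgeR adjusted p = 0.96 and 0.648), and the groups overlapped because set 1 libraries were as low as those of ZT0. Within set 2, which holds every ZT0 library, the same differences were 1.2 and 1.37 log2 units, the latter with 1 control SD library. The evenness at ZT0 and the later spread cannot be told apart from the mix of sets.

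Grp did not follow the other 3 peptide genes. Its control levels were 3.6, 3.19 and 1.68 CPM for ZT0, 2.11, 1.39, 2.17 and 4.25 for ZT6, and 3.6, 3.91, 2.76 and 6.56 for SD. The mutant levels were 4.29 and 5.93 CPM for ZT6 and 2.58, 3.3, 3.03 and 5.05 for SD. The 3 set 1 controls with the least Vip were ordinary for Grp, and the highest Grp in each group of 4, and at mutant ZT6, was the set 3 library. The SD difference was 0.77 ± 0.38 in controls and -0.55 ± 0.45 in mutants, and the interaction was -1.32 ± 0.59 log2 units (unadjusted p = 0.039, edgeR adjusted p = 1).

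Of the receptor genes, Vipr2 had the narrowest spread of the 9 relative to genes of its level. The 3 ZT0 controls measured 7.36, 6.56 and 5.24 CPM. The 4 undisturbed ZT6 controls measured 3.9, 3.77, 4.75 and 4.74 CPM, and the 4 sleep-deprived ones 3.82, 3.53, 4.53 and 4.39. Every control ZT0 library was above every other control library, and the mutants, with 6.08 and 5.62 CPM undisturbed and 5.51, 4.41, 3.96 and 6.34 sleep-deprived, overlapped the ZT0 range. The within-group SD of log2 Vipr2 was 0.219, with 1.84% of 1843 genes of like level at or below it. Set against ZT0, control Vipr2 differed by -0.58 ± 0.23 log2 units at ZT6 and by -0.65 ± 0.23 after SD, with unadjusted p = 0.0216 and 0.0108. Neither difference passed after adjustment over all genes (edgeR adjusted p = 0.96 and 0.644). Within set 2, which holds every ZT0 library, the same differences were -0.57 and -0.47 log2 units.

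Prokr2, the receptor gene for prokineticin 2, was even, with a highest-to-lowest ratio of 2.04. Controls at lights on measured 9.56, 10.1 and 11.4 CPM, those left undisturbed to ZT6 8.22, 7.9, 14.4 and 7.38, and those kept awake 7.23, 7.38, 7.5 and 10.1. Undisturbed mutants measured 7.03 and 10.9 CPM and mutants kept awake 10.5, 10.6, 9.62 and 11.4. One control ZT6 library and 1 control SD library stood above the rest of their groups. Mutant and control SD libraries differed by 0.39 ± 0.23 log2 units (edgeR adjusted p = 0.999), and control SD replicate 4 lay inside the mutant range.

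Lhx1 had the lowest coefficient of variation of the 9 over all 17 libraries, 18.3%. Within groups its SD of log2 CPM was 0.299, above those of Vipr2 (0.219) and Prokr2 (0.287). The ZT0 controls showed 10.6, 10.9 and 14.6 CPM, the ZT6 controls 14.3, 8, 9.67 and 13.7, and the SD controls 13.5, 11.2, 8.32 and 9.38. The ZT6 mutants showed 9.48 and 13.4 CPM and the SD mutants 11.8, 11, 11.1 and 13.7. The library lowest in Lhx1, control ZT6 replicate 2, was second highest in Vip, and the library with the least Vip, control ZT6 replicate 1, was among the highest in Lhx1. No Lhx1 fold change exceeded 0.18 log2 units in size in any of the 7 comparisons, with standard errors of 0.22 to 0.35.

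Six6 was between 8.79 and 19.8 CPM in 16 libraries and 34.7 in mutant SD replicate 1. The ZT0 controls showed 17, 10.9 and 9.67 CPM, the ZT6 controls 11.6, 19.8, 15.1 and 13.9, and the SD controls 8.79, 9.35, 11.1 and 17.3. The ZT6 mutants showed 15.4 and 16.4 CPM and the other SD mutants 9.05, 11.4 and 14.5. Mutant SD replicate 1, the highest for Six6, is the library with pituitary markers at 24860 CPM, and Six6 is known to be expressed in the pituitary gland too; the part of pituitary RNA in this value was not tested. The mutant-control difference after SD was 0.59 ± 0.36 log2 units with that library and 0.02 without it (edgeR adjusted p = 0.999 with it).

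Rgs16 was the most abundant of the 9 genes per length. Its levels were 17.8, 20.3 and 14.1 CPM in the controls of ZT0, 17.2, 20.7, 18.9 and 35.2 in those of ZT6 and 17.6, 20.8, 32.9 and 55.8 in those kept awake. The mutants had 34.7 and 48.7 CPM undisturbed and 41.2, 28.3, 31 and 39.4 kept awake. Every mutant library was above all 3 control ZT0 libraries, but control ZT6 replicate 4 and control SD replicates 3 and 4 reached the mutant range. In set 3 all 4 libraries lay between 35.2 and 55.8 CPM, with the control SD library the highest. Rgs16 differed by 0.87 ± 0.35 log2 units between control SD and ZT0 (unadjusted p = 0.0268, edgeR adjusted p = 0.644) and by 0.86 ± 0.38 between mutant and control at ZT6 (unadjusted p = 0.0394, edgeR adjusted p = 0.999). Within sets the ZT6 genotype difference was 0.81 in set 2 and 0.47 in set 3, and the SD genotype difference 1.11, -0.15 and -0.50 in sets 1, 2 and 3.

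None of the 9 genes was called in any of the 7 comparisons at an adjusted p under 0.05, by edgeR or by DESeq2. The background was the same for edgeR, which called 0% of the 21346 genes in each comparison, while DESeq2 called 0.0924% of genes for SD against ZT6 in controls, 0.0821% for the same in mutants, 0.109% for ZT6 against ZT0, 0.156% for SD against ZT0, 0.071% for mutant against control at ZT6, 0.00474% for mutant against control after SD and 0.0379% for the interaction. At an unadjusted p under 0.05 edgeR placed 0 of the 9 genes for SD against ZT6 in controls (6.17% of all genes) and 0 in mutants (2.16%). It placed 1 for ZT6 against ZT0 (Vipr2, against 3.25% of all genes) and 2 for SD against ZT0 (Vipr2 and Rgs16, against 7.31%). For mutant against control it placed 2 at ZT6 (Grp and Rgs16, against 2.65%) and 0 after SD (2.96%), and for the interaction 1 (Grp, against 2.48%). These counts depended on single libraries. That for mutant against control at ZT6 was 0 without control ZT6 replicate 1, 2 or 3 or mutant ZT6 replicate 4. Both counts against ZT0 were 0 without control ZT0 replicate 1, and that of the interaction was 0 in 8 of the 17 cases with 1 library left out. Other omissions raised counts, to at most 2 for SD against ZT6 in controls and for mutant against control after SD. The highest was 2 for ZT6 against ZT0 and 3 for SD against ZT0. With the 3 index sets as a covariate these last 2 counts were 3 and 4. The share of all genes was not counted in these settings.

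Groups that did not overlap were few outside the comparison of mutant and control at ZT6. None of the 9 genes separated SD from ZT6 in controls (1.82% of all genes did) or in mutants (9.67%), or mutant from control after SD (3.02%). Vipr2 alone separated ZT6 from ZT0 (4.4%) and SD from ZT0 (16%) in controls, lower than at ZT0 in both. Both of those comparisons use the same 3 ZT0 libraries. At ZT6 the 2 mutant libraries lay above all 4 control libraries for Grp, Prok2 and Vipr2, against 6.06% of all genes in either direction.

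By sign, 8 of the 9 genes were higher in mutants than in controls at ZT6 and 8 of 9 after SD, where Lhx1 at ZT6 is counted as higher at 0.00 log2 units. Within index sets the count was lower in most cases: at ZT6 5 of 9 genes were higher in set 2 and 8 of 9 in set 3, and after SD 7 of 9 in set 1, 5 of 9 in set 2 and 3 of 9 in set 3. Their median log2 fold change was 0.45 at ZT6, against -0.06 over all genes, and 0.31 after SD, against -0.02. For SD against ZT6 it was -0.10 in controls and -0.25 in mutants, against -0.02 and -0.01. For ZT6 and SD against ZT0 it was 0.27 and 0.08, against 0.09 and 0.01, and for the interaction -0.07 against 0.03. Vip, Nms and Prok2 share their low libraries, so the 9 signs are not independent.

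**Figure D2:**
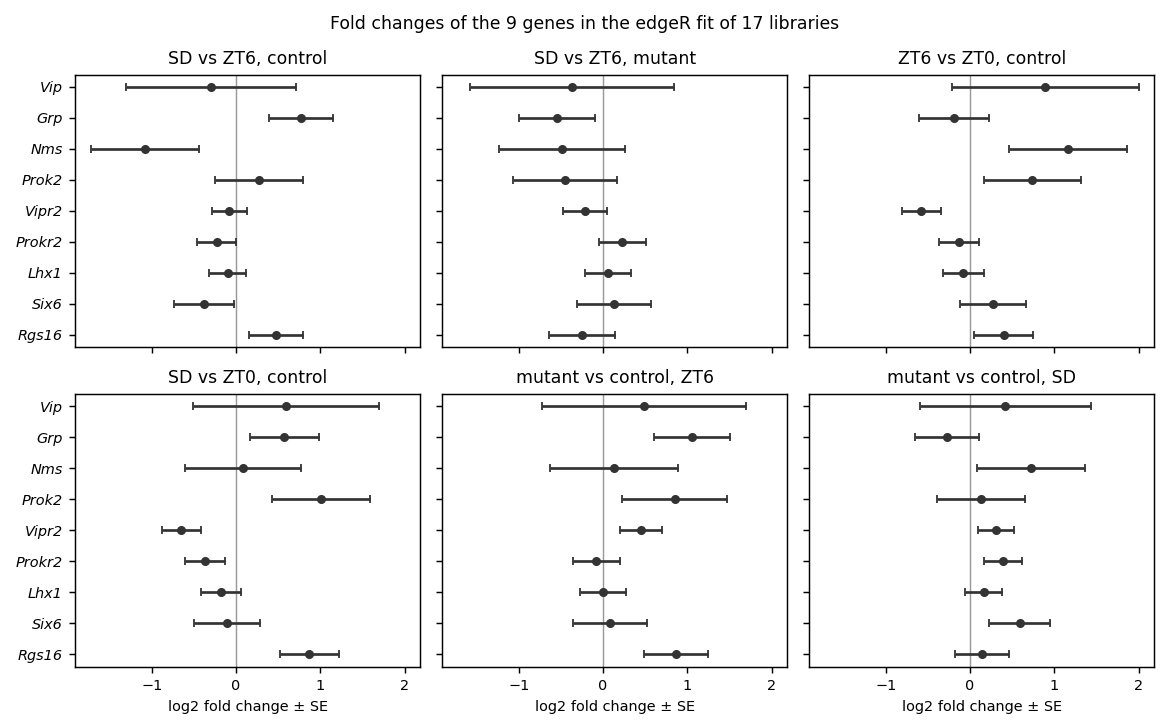
Log2 fold change of each of the 9 genes in every comparison but the interaction, with bars for the SE of the edgeR fit to each side. The bars of Vip are the widest, with an SE of 1.01 for SD against ZT6 in controls, and those of Vipr2 and Lhx1 the narrowest.

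Some of the 9 genes varied together between libraries. After the group means were subtracted from log2 CPM, 7 of the 36 gene pairs had a correlation with an adjusted p under 0.05 over the 17 libraries (two-sided permutation test, Benjamini-Hochberg over the pairs), 4 of them positive. Vip and Prok2 had r = 0.96 and rho = 0.89, with permutation p = 1e-05, the smallest that 100000 resamples can give, and 3e-05 and adjusted p = 0.00018 and 0.0009. Vip and Nms had r = 0.89 and rho = 0.83 (permutation p = 1e-05 and 5e-05, adjusted p = 0.00018 and 0.0009). Nms and Prok2 had r = 0.85 and rho = 0.78 (permutation p = 3e-05 and 0.00042, adjusted p = 0.00036 and 0.0036). All 3 pairs of these peptide genes were thus called, and Grp was called with none of the 3: r of Grp was 0.22 with Vip, and 0.10 with both Nms and Prok2 (adjusted permutation p of 0.6 or more). With the means of the 3 index sets subtracted as well, Six6 was called with each of these peptide genes too (values below).

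Without the 2 libraries farthest from the median of the first gene, r was 0.93 for Vip and Prok2, 0.80 for Vip and Nms and 0.77 for Nms and Prok2. Leaving out each of the 17 libraries in turn kept r of the 3 pairs between 0.78 and 0.97, and each pair stayed under an adjusted p of 0.05 all 17 times. With the means of the 3 index sets subtracted as well, r was 0.81, 0.76 and 0.59. In that setting Nms and Prok2 had rho = 0.48 (adjusted permutation p = 0.132), and r = 0.30 without the 2 farthest libraries. Without the 4 libraries of set 1, r of the 3 pairs was 0.72, 0.77 and 0.51 (adjusted permutation p = 0.0463, 0.0394 and 0.237), so the Nms and Prok2 pair was no longer called. Within set 2 alone, over 9 libraries and with no group means subtracted, r was 0.83, 0.91 and 0.73 (permutation p = 0.00362, 0.00043 and 0.0219, adjusted p = 0.0652, 0.0155 and 0.187), so Vip and Nms was the one of the 3 pairs called there. Without the 2 farthest of those 9 libraries r was 0.61, 0.94 and 0.60. Sets 1 and 3 hold 4 libraries each, too few for a correlation. The test permutes residuals of a group fit, which is approximate.

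Lhx1 ran opposite to the 3 peptide genes. Its r was -0.68 with Vip, -0.71 with Prok2 and -0.81 with Nms, and rho was -0.72, -0.80 and -0.77. The permutation p for r was 0.00241, 0.0015 and 4e-05, and the adjusted p was 0.0145, 0.0108 and 0.00036. Without the 2 farthest libraries r was -0.66, -0.68 and -0.73, and with set means subtracted too it was -0.82, -0.81 and -0.85. Within set 2 r was -0.73, -0.71 and -0.70, but without the 2 farthest of those 9 libraries -0.18, -0.47 and 0.14, so within that set the relation of Lhx1 with Vip and Nms rested on those libraries. Without set 1 the adjusted permutation p was 0.168 for Vip and 0.105 for Prok2, and 0.0463 for Nms. Without control ZT6 replicate 1 alone it was 0.0576 for Vip.

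The remaining pair by Pearson r was Vip and Rgs16, with r = 0.64 (permutation p = 0.0057, adjusted p = 0.0293) and rho = 0.52 (permutation p = 0.0321, adjusted p = 0.116). It rested on few libraries: r was 0.48 without the 2 farthest libraries, 0.18 without set 1, and within set 2 it was 0.58 and 0.06 without the 2 farthest. With set means subtracted too, r was 0.71 and rho 0.62 (adjusted permutation p = 0.00468 and 0.032), and r was 0.41 without the 2 farthest libraries. With group means alone subtracted, the pair was not called when control SD replicate 1, 2 or 4 was left out, with an adjusted permutation p of up to 0.253. By rank, Six6 and Rgs16 was called in its place (rho = 0.67, permutation p = 0.00451, adjusted p = 0.0232), with r = 0.54 (permutation p = 0.0277, adjusted p = 0.0998). Without set 1 Grp and Rgs16 had r = 0.90 and rho = 0.82 (adjusted permutation p = 0.00396 and 0.0371), against 0.60 and 0.39 over all 17 libraries (0.0502 and 0.267) and r = 0.56 within set 2. With group means alone subtracted, Six6 correlated little with Vip over all 17 libraries (r = 0.35, adjusted permutation p = 0.373). With set means subtracted too, over the same libraries, r of Six6 was 0.91 with Vip, 0.64 with Nms and 0.84 with Prok2. It was -0.83 with Lhx1 in that setting, and each of these pairs was called (adjusted permutation p of 0.0162 or less). Leaving out mutant SD replicate 1, the library with the most pituitary transcripts, with group means alone subtracted, gave 14 called pairs. There r of Six6 was 0.72 with Vip, 0.64 with Nms and 0.75 with Prok2. With all 17 libraries the receptor genes Vipr2 and Prokr2 were in no called pair, while Grp and Vipr2 were called without mutant SD replicate 1 or control SD replicate 3, and Vipr2 and Six6 without control ZT6 replicate 2 or mutant SD replicate 4.

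**Figure D3:**
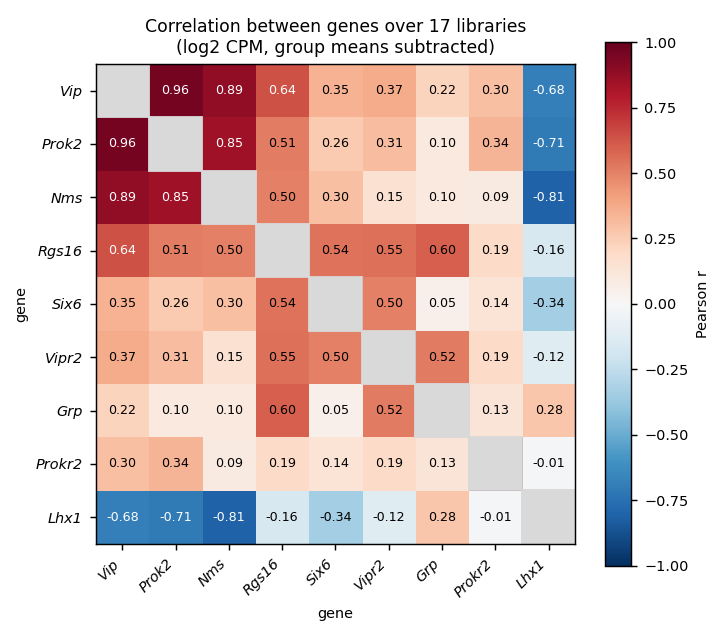
Pearson r between each pair of the 9 genes over 17 libraries, as log2 CPM with group means subtracted; colour runs from negative to positive r. Vip, Nms and Prok2 form a block at 0.85 to 0.96, and Lhx1 is at -0.68 to -0.81 with each of them.

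**Figure D4:**
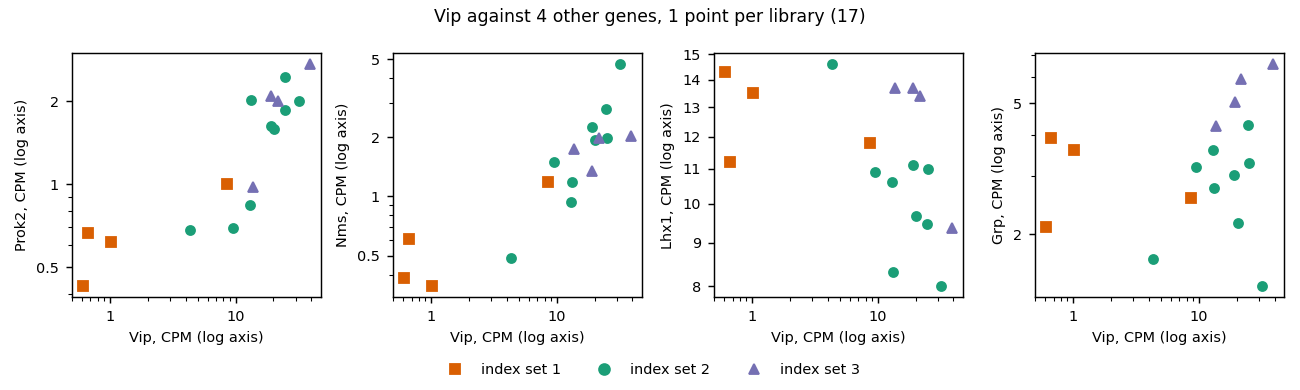
Level of 4 other genes against that of Vip (CPM, log axes), each point 1 of 17 libraries, with no group means subtracted. Prok2 and Nms run up with Vip, Lhx1 runs down and Grp shows no such order.

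Set against the rest of the transcriptome, Prok2 had the highest r with Vip of 21345 other genes after group means were subtracted, and 0.0141% of them were at or above the r of Nms. For Rgs16 3.81% were at or above its r, and for Lhx1 5.28% were at or below its r. Vipr2, Six6, Prokr2 and Grp had 17.5% to 28.3% of genes at or above their r. All these values share the libraries and their depth and are descriptions.

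Of 16 other genes known from the nucleus, the median r with Vip was 0.38, against -0.05 over all genes. Rorb, which encodes a retinoid-related orphan receptor, had r = 0.69, Zfhx3, a transcription factor that affects circadian period, 0.62, and the calcium-binding protein genes Calb2 and Calb1 0.55 and 0.53. Avp, the vasopressin gene of the shell of the nucleus that is also strongly expressed in magnocellular neurons, had r = 0.30. Rasd1 was at -0.32 and Cck at -0.05. Some of these genes are expressed in many hypothalamic areas, the genes named here were chosen after their values were seen, and the list was not tested.

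By a fixed rule, the 3 genes with a log2 CPM most like that of each of the 9 genes were searched among 16731 genes other than the 9, at a mean of 1 CPM or more, with no group means subtracted and no test. For Vip these were Zic5 (r = 0.84), Arl4a (0.83) and Gm10012 (0.82), and for Nms Zic5 (0.81), Zic4 (0.78) and Dlx6 (0.78). Zic4 and Zic5 encode zinc finger transcription factors and Dlx6 a homeodomain factor. Zic5 ranged from 1.26 to 7.12 CPM, Zic4 from 2.29 to 14.1 and Dlx6 from 8.48 to 47.7. For Prok2 they were Mcl1 (0.84), Rgs10 (0.82) and Brix1 (0.81), none of which was among the 3 of Vip or Nms. On the same scale r between the 3 peptide genes was 0.88 for Vip and Nms, 0.86 for Vip and Prok2 and 0.80 for Nms and Prok2.

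For Grp the most alike were Sept6 (0.86), Ppp1r21 (0.85) and Tmem150c (0.84), for Vipr2 Spata1 (0.70), Atg4a and Acap1 (both 0.66), and for Prokr2 2810471M01Rik (0.83), Zfp473 and Fnip1 (both 0.81). For Lhx1 they were Cyth3 (0.86), Npnt (0.83) and Gphn (0.82), and for Six6 Ppl (0.86), Prr15l (0.84) and Stoml3 (0.80). Ppl reached 10.6 CPM from a median of 0.975, and Prr15l 3.06 from 0.912. Rgs16 had the closest neighbours, Gm28513 (0.95), Copb2 (0.92) and Scg2 (0.91), the last a granin gene of secretory vesicles at 961 to 2260 CPM. For the mean of the 9 standardised genes they were Morc4 (0.85), Gpr161 (0.82), Sec23ip (0.81), Ptprk, Maats1 and Gm13442 (each 0.80).

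The related peptide and receptor genes gave no call. Of 12 listed members of the bombesin, VIP, neuromedin and prokineticin families 10 passed the low-count filter (Nmur1 and Prok1 did not), and 0 of the 10 were called in any comparison by edgeR. Their median log2 fold change lay between -0.10 and 0.15 over the 7 comparisons. The 2 most abundant by CPM are named after their values were seen: Adcyap1r1, the PACAP receptor gene, stood at 228 to 429 CPM, and Adcyap1, the gene of PACAP, which signals light from retina to the nucleus, stood at 41.9 to 90.3. Grpr, the receptor gene for gastrin-releasing peptide, stood at 0.511 to 3.14 CPM and was the only one of the 10 at an unadjusted p under 0.05, at 0.94 ± 0.43 log2 units for mutant against control after SD (unadjusted p = 0.0446, edgeR adjusted p = 0.999).

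None of the 16 other suprachiasmatic genes, 17 clock genes or 9 cyclic AMP and calcium responsive genes was called by edgeR in any comparison either. At an unadjusted p under 0.05, SD against ZT6 in controls held 0 genes of these lists (6.17% of all genes). ZT6 against ZT0 in controls held 3 of 16 suprachiasmatic genes, all higher, 4 of 17 clock genes, 3 of them higher, and 2 of 9 responsive genes, both higher, against 3.25% of all genes tested. SD against ZT0 in controls held 5 of 16, 3 of 17 and 3 of 9, all higher, against 7.31%. Mutant against control held 2 of the 16 suprachiasmatic genes at ZT6, both higher (2.65% of all genes), and 3 after SD, 2 of them higher (2.96%), with no clock or responsive gene in either. SD against ZT6 in mutants held 2 clock genes, 1 in each direction (2.16%), and the interaction held none of the 3 lists (2.48%). The responsive genes had a median of 0.71 log2 units for ZT6 against ZT0 and 0.66 for SD against ZT0, against 0.09 and 0.01 over all genes. The following were chosen after their values were seen: the clock output genes Dbp and Nr1d1 differed by 1.26 ± 0.34 and 1.02 ± 0.30 between ZT6 and ZT0 (unadjusted p = 0.00186 and 0.00402), Arntl, which encodes BMAL1, by -0.79 ± 0.34 (unadjusted p = 0.0356), and the immediate early gene Egr1 by 0.94 ± 0.35 (unadjusted p = 0.0162), each with an edgeR adjusted p of 0.96. Sst, the somatostatin gene, differed from ZT0 by 0.85 ± 0.30 at ZT6 and 1.03 ± 0.30 after SD (edgeR adjusted p = 0.96 and 0.644). Every ZT0 library is in set 2, while the ZT6 and SD controls come from all 3 sets. The differences of list genes from ZT0 were not computed within set 2 and cannot be told apart from the mix of sets.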

How the data were processed

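The authors sequenced TruSeq polyA libraries of mouse hypothalamus on an Illumina NovaSeq instrument, trimmed reads with Trimmomatic 0.38 and estimated transcript abundance with kallisto 0.44.0, imported per gene with tximport, per the labels' protocols; their index is named there only as an Ensembl release 79 annotation package. The deposited values are estimated counts (expected counts) per gene, already whole numbers. Counts were used as deposited. Of 41461 lines, 5 repeated ones were dropped, which left 41456 gene IDs. Of the 22 libraries, 5 stayed out by the rule that defines the 17: 4 with few neural transcripts (mutant ZT0 replicates 1 to 3 and mutant ZT6 replicate 3) and mutant ZT6 replicate 2, with 7348 counts. Totals of the 17 were 14609454 to 46965594 counts.

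Low counts were filtered with filterByExpr (minimum count 10, minimum total 15), and 1 quasi-likelihood fit of 5 groups (edgeR 4.0.16, limma 3.58.1, R 4.3.3, TMM factors, no covariate) gave the 7 comparisons, two-sided, with Benjamini-Hochberg adjustment over 21346 genes and a threshold of 0.05. Levels are TMM-scaled CPM, and log2 CPM used a prior count of 2. Correlations used 100000 resamples in Python 3.11.15 (numpy 2.4.6). Alternatives were DESeq2 1.42.0, RLE factors, no filter, all 22 libraries, index sets as covariates or left out, libraries with pituitary transcripts left out, only the groups compared, and each library left out. The scripts were tested on simulated data.

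The text names the 9 genes in every comparison, list genes that passed the test, and the 3 genes most like each of the 9 (6 for their mean); list genes named beyond this are marked where they stand. The genes, lists and tests were chosen with earlier results of these data known. Exon lengths and positions came from the GENCODE M21 annotation of GRCm38, and promoters from RefSeq. Closely related genes can share reads in such estimates, and counts without strand cannot separate antisense transcripts.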

Additional observations from a re-analysis of the deposited data

Results flagged for a closer look

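Prokr2 stood apart in 1 library of each of 2 control groups. In control ZT6 replicate 3 it was 14.4 CPM, against 7.38 to 8.22 in the other 3 libraries, and in control SD replicate 4 it was 10.1 CPM, against 7.23 to 7.5. These were the only such values in 27 groups of 4 libraries looked at (9 genes in 3 groups), and chance alone marks about 1 group in 20.

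Rgs16 was high in 4 libraries outside the comparisons, those with few neural transcripts. Its level was 93.5 CPM of the total in mutant ZT0 replicate 1, 95.8 in replicate 2, 71.8 in replicate 3 and 68.8 in mutant ZT6 replicate 3, against a highest control value of 50.9. The other 8 genes were low or at 0 there: Lhx1 and Nms had 0 counts in all 4, Vip had 22 counts in mutant ZT0 replicate 1, 10 in mutant ZT6 replicate 3 and 0 in the other two, and Vipr2 stood at 0.581 to 2.56 CPM against 3.28 to 7.64 in the 17. Prok2 had 75 counts (2.33 CPM) in mutant ZT0 replicate 2, inside the range of 0.447 to 2.48 of the 17 libraries, and 0 in the other 3. What these libraries hold was not tested.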

How the results depend on the processing

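The number of the 9 genes called by edgeR was 0 in each of the 7 comparisons, and it was 0 under each alternative run, including each library left out. Of 1134 fold changes of the 9 genes over these settings, 1078 lay within 1 SE of the main value and 56 moved further, and 33 of 63 results changed sign in at least 1 setting without being called in any. With all 22 libraries in 1 fit, mutant against control at ZT6 gave Rgs16 a log2 fold change of 1.66 (edgeR adjusted p = 0.0731), the smallest adjusted p of any of the 9 genes, against 0.86 in the 17. That fit adds mutant ZT6 replicate 3, with few neural transcripts and Rgs16 at 68.8 CPM of the total, and replicate 2, with 7348 counts. It therefore does not compare like tissue between genotypes. Over all genes edgeR called 0 in each comparison and DESeq2 called 18, 17, 23, 33, 15, 1 and 8 genes (in the order SD against ZT6 in controls and in mutants, ZT6 and SD against ZT0, mutant against control at ZT6 and after SD, interaction); the fit of all 22 libraries called 173 for SD against ZT6 in mutants. Of 36 gene pairs, 7 were called, 14 with index set means subtracted too and 4 without index set 1; leaving out each library gave 6 to 14, with 14 without mutant SD replicate 1. The omission of index set 1 and of single libraries from the pairs was chosen after seeing the data, and the cause of these moves was not tested. No paired analysis was possible because replicate numbers follow only the order of the deposit. Counting error at the lowest count was largest for Nms, Prok2 and Vip, at 13, 14 and 23 counts. The Prok2 value came from control ZT6 replicate 4, the library with the lowest total of the 17 (14609454 counts). The Nms and Vip values came from deeper libraries, control SD replicate 1 (36417345 counts) and control SD replicate 2 (33436549 counts). The part of depth in these low counts was not tested.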
